A study of Medicago truncatula with 6 samples.

Results

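Helitron IDs are the features of a small RNA count table whose annotation ID contains the word helitron. They number 48753 of the 400216 features, 12.2%, and all of them were taken, whatever their counts. Of these, 47874 are fragments, each named after a source element with its coordinates and after the chromosome that carries the fragment, and 879 are bare element IDs that give a helitron number alone. The libraries are small RNA from mock-treated roots of the legume Medicago truncatula, in 2 groups of 3. One group carried RNAi against SKI3 and the other RNAi against GUS, and the labels give the genotype of every library as WT. SKI3 belongs to the Superkiller complex, which passes RNA to the exosome for decay, and GUS is a bacterial reporter used as an RNAi control. The comparison asks whether root small RNAs differ between the RNAi lines without a further treatment. The promoter that drives the RNAi, the age of the plants and whether a library pools several plants are not given in the sources used here.

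Helitrons are DNA transposons that move by rolling-circle replication, with a protein that joins a replication initiator to a helicase. Unlike most DNA transposons they have no terminal inverted repeats and make no duplication of the target site, and in plants they often carry pieces of host genes. Plant small RNAs, cut by Dicer-like proteins, guide the silencing of transposable elements by cleavage of their RNA or by methylation of their DNA.

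The deposited values are raw counts of reads per feature, and totals ran from 2168297 to 3974092 per library. Counts divided by the library total and scaled to 1000000 are written CPM. A floor of 3 counts equals between 0.755 and 1.38 CPM, depending on the library. A header line left in the table of SKI3 RNAi replicate 3 names reads of 21 to 22 nt, and the other tables name no length. Features carry no gene names here, so root markers and small RNAs of SKI3 itself were not analysed here. In 28 of the 29 helitron IDs that passed the test as lower when SKI3 RNAi replicate 1 was left out, that library held the highest CPM of all 6. Results that rest on it are given with and without it.

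The annotation splits the fragments unevenly. Singleton families, those whose ID contains singleton_family, hold 35390 fragments, 73.9%, from 662 source elements with 1 element to a family. The other families hold 12484 fragments, 26.1%, from 180 source elements in 97 families. Of these 97 families, 65 also have a single source element among the IDs, and the family with most has 12. Source elements of singleton families had a median length of 8644.5 bp, from 261 to 19992 bp, and those of other families a median of 5654.5 bp, from 243 to 19880 bp. A singleton element gave a median of 35 fragments and an element of another family a median of 27. Per kb of source there were 5.77 fragments in singleton families and 9.15 in the others. Fragments mostly lay away from their source, with 15.2% on the source chromosome. The ID gives no length or position for the fragment itself, so a level per fragment is not a level per base.

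Small RNA counts were spread thinly over the helitrons. A fragment had a median of 0.440 CPM, averaged over 6 libraries, which is below the floor of every library. Bare element IDs had a median of 7.82 CPM. In a single library between 58.5% and 66.6% of the helitron IDs had a count, and 7222 IDs were at 0 in all 6. Those at 0 throughout were 16.6% of singleton fragments, 10.7% of other-family fragments and 1.93% of bare elements. The 10 IDs with the highest mean CPM held 1.17% of the helitron CPM, the first 100 held 6.70% and the first 1000 held 30.4%. By source, 84 of the 842 source elements held 56.3% of the CPM of all fragments, and 32 source elements had no count in any fragment.

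Helitrons held 9.03%, 9.55% and 8.66% of the counts in GUS RNAi replicates 1, 2 and 3. In SKI3 RNAi the shares were 9.47%, 10.1% and 9.50%. The groups overlapped, because GUS RNAi replicate 2 lay above SKI3 RNAi replicates 1 and 3. The means were 9.08% ± 0.446 and 9.68% ± 0.336 (SD, n = 3), a difference of 0.599 percentage points with an exact two-sided permutation p of 0.3. Counting error was small beside this spread, with 95% Wilson intervals of at most 0.0391 points to either side. With the 10 most counted features of the table left out of the total, the difference was 0.0608 points. In whole roots, a change in the number of cells that make these RNAs and a change in RNA per cell cannot be told apart.

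Singleton fragments held most of the helitron counts in both groups. They held 61.5% ± 0.115 with GUS RNAi and 61.6% ± 0.554 with SKI3 RNAi. Fragments of other families held 27.3% ± 0.343 and 27.2% ± 0.622. Bare elements held 11.2% ± 0.248 and 11.2% ± 0.0709. None of these differences exceeded the spread between libraries, with an exact permutation p of 0.8 for each. The 10 most counted helitron IDs, bare elements among them, held 1.24%, 1.21% and 1.40% of the helitron counts with GUS RNAi. With SKI3 RNAi they held 0.966%, 0.848% and 1.42%. SKI3 RNAi thus held both the highest and the lowest shares (exact permutation p 0.4). Over 9 such summaries the smallest adjusted p was 0.9. A test of 3 libraries against 3 cannot give a p below 0.1.

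**Figure D1:**
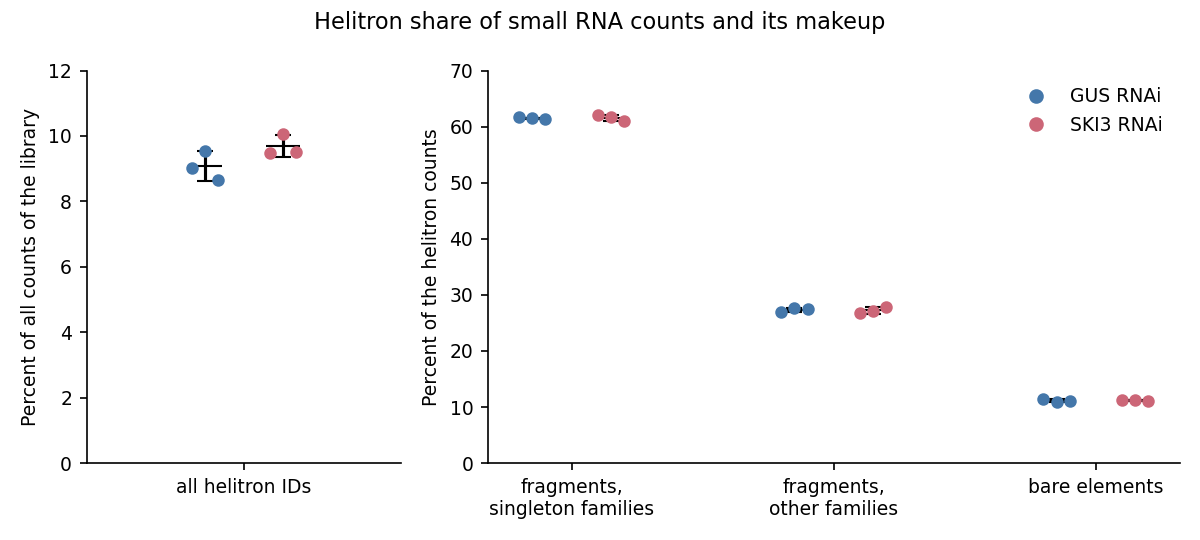
Left, the percent of all counts of a library in helitron IDs; right, the percent of the helitron counts in singleton fragments, other-family fragments and bare elements. Points are libraries, replicates 1 to 3 from the left, bars are the mean and SD of 3 libraries; singleton fragments lie between 61.0% and 62.1% in all 6.

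Within each library, singleton fragments carried fewer small RNA counts than fragments of the other families. Singleton fragments had a mean of 1.57, 1.66 and 1.503 CPM with GUS RNAi and 1.66, 1.76 and 1.64 CPM with SKI3 RNAi. Other-family fragments had 1.95, 2.11 and 1.90 CPM with GUS RNAi and 2.02, 2.18 and 2.12 CPM with SKI3 RNAi. Both kinds were read from the same libraries, and in each one the other families were higher. The log2 ratio of singleton over other families was -0.33 ± 0.0321 (SD, n = 6 libraries), from -0.38 to -0.28. The exact two-sided sign-flip permutation test over 6 libraries gave a p of 0.03125, the smallest it can give, and 0.0357 after adjustment over 16 within-library comparisons. All 6 libraries count the same annotated IDs. This p and those of the later comparisons within libraries measure repeat over libraries, not spread over source elements. Single elements weighed on the means. In other families helitron608 had 8.61 CPM per fragment over 237 fragments and helitron30 had 5.09 over 398. Among singleton families helitron112 had 10.2 over 108. The ratio without such elements was not tested. For sources of 10000 bp and over, the median fragment had 0.413 CPM in singleton families and 0.678 in the others.

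The share of fragments with a count also differed. It was 64.02%, 55.7% and 59.8% for singleton fragments with GUS RNAi and 59.9%, 59.2% and 57.0% with SKI3 RNAi. For other families it was 72.0%, 64.03% and 68.8%, then 68.6%, 67.2% and 65.8%. The difference averaged -8.46 points, from -8.98 to -7.96, with 6 of 6 libraries below 0 (exact permutation p 0.03125, adjusted p 0.0357). It was -3.95 points when at least 10 counts were asked for. It was -0.659 points when IDs with the same 6 counts were kept once, a setting that collapses the IDs at 0 in all libraries into 1.

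Summed over fragments and divided by the length of the source elements, the contrast was larger. Singleton families held 9.41 CPM per kb of source and other families 18.8 CPM per kb, averaged over 6 libraries. The log2 ratio was -0.996 ± 0.0321, from -1.04 to -0.95 over libraries. This measure is the product of the fragments per kb of source, which the annotation fixes, and the CPM per fragment. It therefore differs from the ratio per fragment by the same amount in each library, and its exact permutation p of 0.03125 is no separate test. Bare elements, whose own length is known, held 1.34 CPM per kb in singleton families and 1.60 in the others, a log2 ratio of -0.25 ± 0.0548 with 6 of 6 libraries below 0 (exact permutation p 0.03125, adjusted p 0.0357). The contrasts per fragment, in detection and of bare elements were not shown to differ between the RNAi groups, with exact permutation p-values of 0.3 to 1. How reads that align to several places were counted is not given in the sources used here, and its part in the contrast was not tested.

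The same split was present in other transposable elements of the table. Among 97165 fragments of terminal inverted repeat elements, singleton fragments had a log2 ratio of -0.37 in CPM per fragment and were detected less often by 8.67 points. The helitron ratio minus that of terminal inverted repeat elements was 0.04, from -0.04 to 0.11 over libraries (exact permutation p 0.3125), so no difference was shown. Among 65572 fragments of LTR retrotransposons the ratio was -0.66, larger in size than in helitrons by 0.33, from 0.22 to 0.42 (exact permutation p 0.03125, adjusted p 0.0357). The gap in detection was instead larger in helitrons than in LTR retrotransposons, by 1.44 points. Helitron fragments were more often detected than fragments of terminal inverted repeat elements, by 5.17 points, and than those of LTR retrotransposons, by 10.8 points. Their mean CPM per fragment was higher by 0.30 and 0.34 on the log2 scale, in 6 of 6 libraries each (exact permutation p 0.03125, adjusted p 0.0357 for each). Fragment lengths are not in the IDs of any of these classes, so the levels are not per base.

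Source-element length was then examined, with fragments grouped by the length that their ID gives for the source. No source was under 200 bp. The 10 sources of 200 to under 500 bp gave 36 fragments, and the 28 sources of 500 to under 1000 bp gave 209. The 52 sources of 1000 to under 2000 bp gave 618 fragments, the 194 of 2000 to under 5000 bp gave 3811 and the 213 of 5000 to under 10000 bp gave 9794. The 345 sources of 10000 bp and over gave 33406 fragments, 69.8% of all. Long elements thus supplied most fragments.

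Detection did not rise steadily with source length. Over 6 libraries 14.4% ± 4.09 of the fragments of the shortest class had a count, against 72.6% ± 3.35 in the class of 500 to under 1000 bp. In the next classes it was 64.3% ± 3.12, 57.2% ± 2.97, 59.0% ± 2.84 and, from 10000 bp, 62.6% ± 2.86. The shortest class rests on few fragments, and only 4 of them come from other families. Mean CPM per fragment followed the same order at its ends, at 0.248 ± 0.0618 in the shortest class and 2.12 ± 0.342 in that of 500 to under 1000 bp. It was 1.30 ± 0.172, 1.54 ± 0.116, 1.53 ± 0.0743 and 1.83 ± 0.0934 in the longer classes. Across all fragments the Spearman rho of source length and mean CPM was 0.03, a description over fragments that share libraries and sources.

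Singleton fragments were below other-family fragments in detection in every length class. In the class of 1000 to under 2000 bp 54.2% of singleton fragments had a count against 79.8% of the others, the widest gap of the classes from 500 bp. From 10000 bp the shares were 60.6% and 68.6%. The gap had a sign-flip p of 0.03125 by the exact permutation test within each class of 500 bp and over, and in the class of 200 to under 500 bp it was -7.29 points with an exact permutation p of 0.5625. The log2 ratio per kb of source was -1.48 for 5000 to under 10000 bp and -0.31 for 2000 to under 5000 bp, where the exact permutation p was 0.0625. From 5000 to under 10000 bp other families gave 68.7 fragments per source and singleton families 40.6. Element helitron30, of another family and 6069 bp long, alone summed to 2028 CPM in that class.

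**Figure D2:**
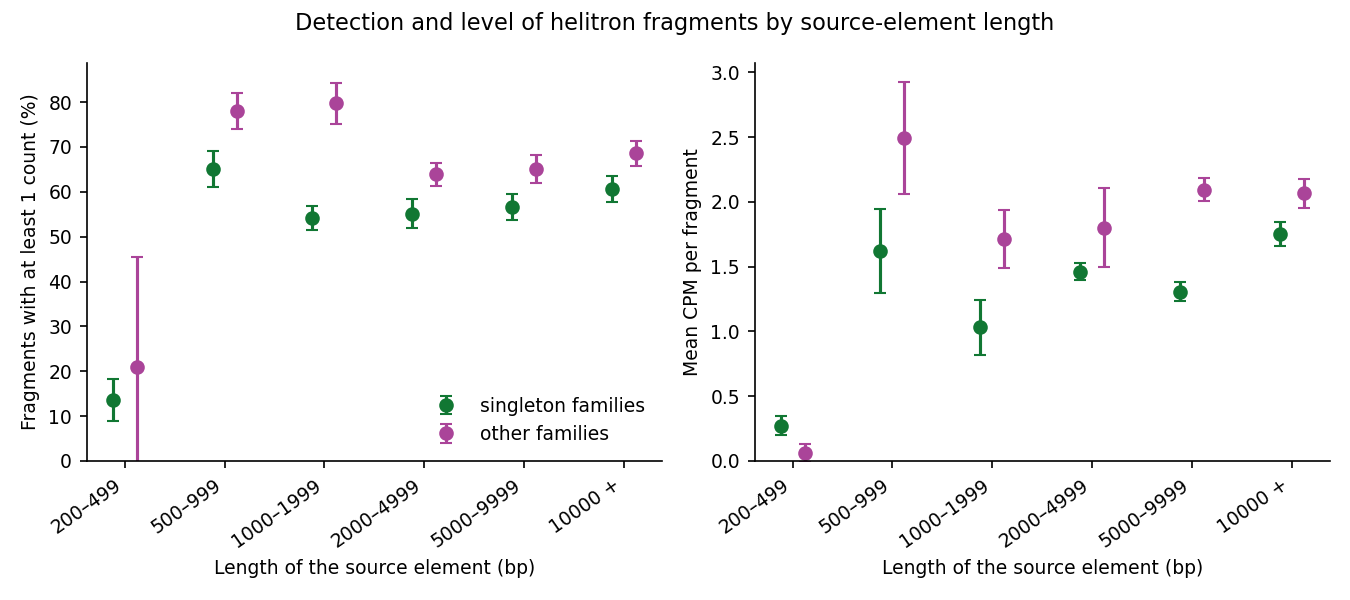
Percent of fragments with at least 1 count (left) and mean CPM per fragment (right) by length of the source element in bp, for singleton and other families. Points and bars are the mean and SD over 6 libraries. In detection the singleton points lie below those of other families in every class. In mean CPM the order is the other way in the class of 200 to under 500 bp. That class has 4 other-family fragments and 32 singleton fragments, and 1 of the singleton fragments, from helitron824, had 4.76 CPM.

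Long sources supplied most fragment counts in both RNAi groups. Fragments of sources of 10000 bp and over held 73.2%, 72.8% and 73.8% of fragment counts with GUS RNAi and 73.7%, 73.5% and 73.5% with SKI3 RNAi. The means were 73.3% ± 0.496 and 73.6% ± 0.123 (exact permutation p 0.4). The class of 200 to under 500 bp held 0.00975%, 0.0157% and 0.0108% of fragment counts with GUS RNAi and 0.00876%, 0.00963% and 0.00952% with SKI3 RNAi. Here the groups did not overlap, at 0.0121% ± 0.00318 and 0.00930% ± 0.000475, with an exact permutation p of 0.1, the smallest that this design can give, and 0.6 after adjustment over the 6 classes. That class has 36 fragments, and only 1 of them had enough counts to be tested. This fragment, number 3969 of helitron824, had 16, 15 and 16 counts with GUS RNAi and 14, 10 and 10 with SKI3 RNAi. The shares of the class thus rest on few counts, many of them from a single fragment. In the other classes no difference was shown.

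Bare element IDs show how small RNA level goes with length for whole elements, since a length is known for 842 of the 879 through their fragments. Their mean level was 0.378 CPM for elements of 200 to under 500 bp, 1.81 for 500 to under 1000 bp and 2.40 for 1000 to under 2000 bp. It was 5.93, 10.6 and 19.8 CPM in the longer classes. The Spearman rho of length and mean CPM was 0.63 over the 842 elements. Per kb the classes were much closer, at 1.10 ± 0.333, 2.32 ± 0.153, 1.67 ± 0.162, 1.67 ± 0.084, 1.44 ± 0.0759 and 1.33 ± 0.0694 CPM per kb, and rho was 0.03. The median element held 1.00 CPM per kb in singleton families and 1.44 in other families. The 37 bare elements with no fragment in the table had a median of 0.373 CPM, against 8.35 CPM for the rest.

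Single elements stood far from these medians. The 5253 bp element helitron48 had 85.7 CPM, or 16.3 CPM per kb, the highest of all per kb. The 3259 bp helitron206 had 44.5 CPM, or 13.7 per kb, and the 293 bp helitron824 had 2.54 CPM, or 8.65 per kb. In total CPM the bare IDs helitron77, of 15191 bp, and helitron50, of 16390 bp, were highest at 96.0 and 95.6 CPM. These elements were all of singleton families. The level of a bare element went with the mean CPM of its fragments, with a Spearman rho of 0.61 over 842 elements that share the same libraries.

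**Figure D3:**
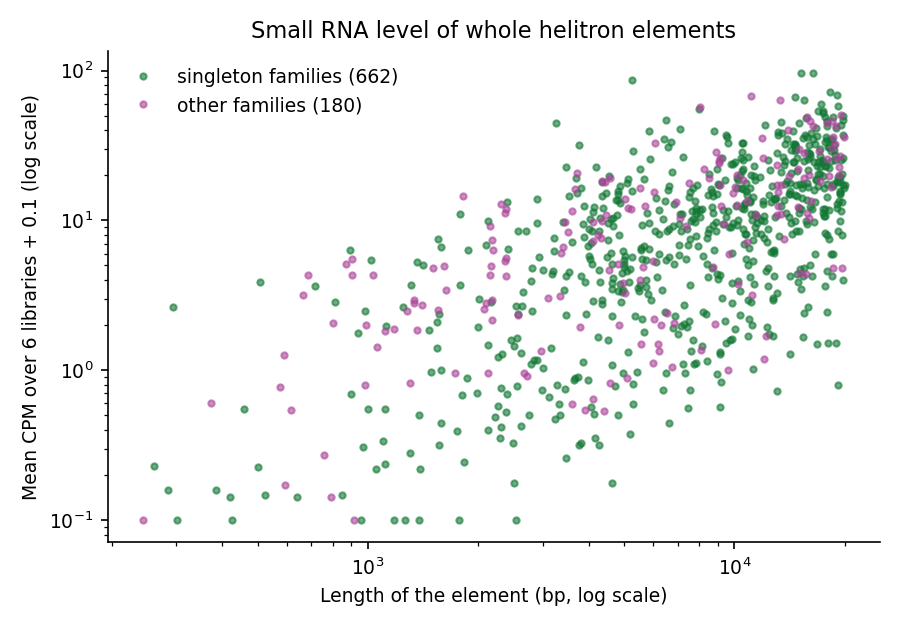
Mean CPM over 6 libraries plus 0.1 of each of the 842 bare elements with a known length, against that length in bp, both on log scales. Points are elements, coloured by singleton or other family; level rises with length while elements of one length still differ by more than 10-fold.

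The groups were then compared ID by ID with edgeR's quasi-likelihood test on the counts of all features, with Benjamini-Hochberg adjustment over the 48283 features that passed the filter on low counts. Of the helitrons 6679 were tested, 13.7% of them, namely 4150 singleton fragments, 1933 other-family fragments and 596 bare elements. Those tested held 67.2% to 71.4% of the helitron counts of a library. No helitron had an adjusted p under 0.05, where the share among all tested features was also 0%. The smallest adjusted p was 0.744. DESeq2's Wald test also called 0 helitrons, with a smallest adjusted p of 0.420. At an unadjusted p under 0.05 edgeR gave 378 helitrons, 5.66%, below the 6.58% of all tested features. DESeq2 gave 102 helitrons, 1.53%, below its 2.38% of all tested features.

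Both directions were found among the helitrons. Of the 378, 202 were higher in SKI3 RNAi and 176 lower, 3.02% and 2.64% of those tested, against 3.57% and 3.01% of all features. The higher share of these calls, 53.4%, was 32.4% with DESeq2 and 81.4% with total counts as the only scaling. That scaling moved the median over all tested features, as a log2 fold change, from 0.02 to 0.16, and of helitrons from 0.00 to 0.15. With TMM scaling the groups did not overlap in 439 helitrons that were higher and 309 that were lower, 6.57% and 4.63% of those tested. Among all tested features the shares were 7.3% and 5.61%, and both directions together made 11.2% of helitrons and 12.9% of all. The median log2 fold change was 0.02 for singleton fragments, -0.03 for other families and 0.03 for bare elements. The median biological coefficient of variation was 0.195 in helitrons and 0.192 in all tested features, so their replicates were about equally tight.

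Helitron calls depended on SKI3 RNAi replicate 1 and on the filter. Without that library 31 helitrons passed the adjusted threshold, 29 lower and 2 higher with SKI3 RNAi. They were 0.44% of the helitrons tested there, against 0.973% of all features. Without a filter on low counts 18 passed, 12 higher and 6 lower, 0.0433% of the helitrons tested, against 0.109% of all features. Only 1 helitron passed in both of these settings. Of the 18, 9 were fragments of helitron538 and 4 of helitron263.

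**Figure D4:**
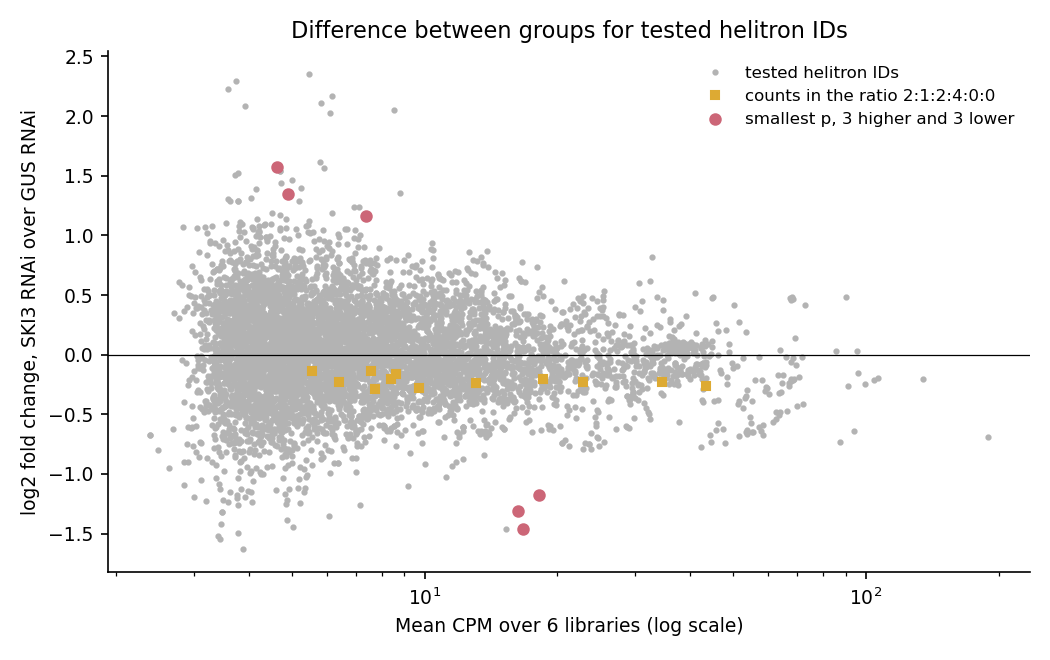
Log2 fold change of SKI3 RNAi over GUS RNAi against mean CPM over 6 libraries (log scale) for the 6679 tested helitron IDs. Grey points are IDs, circles the 3 higher and 3 lower IDs with the smallest p, squares the 12 IDs whose counts followed one ratio; no point has an adjusted p under 0.05.

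The most counted helitron was a fragment of helitron649, a singleton element of 18549 bp at chr6:40474366-40492914 of the MtrunA17 assembly. It lies on chromosome 6 and carries the number 23163. Its counts were 857, 419 and 960 with GUS RNAi and 409, 241 and 531 with SKI3 RNAi. In CPM these were 216, 193 and 275 against 143, 104 and 203, so SKI3 RNAi replicate 3 lay above GUS RNAi replicate 2. The means were 228 ± 42.5 and 150 ± 50.1 CPM, and the log2 fold change was -0.69 (standard error 0.279, edgeR adjusted p 0.744). A second helitron649 fragment, number 22311 on the same chromosome, went with it. It had 393, 193 and 461 counts, then 183, 107 and 249, and the first held 2.08 to 2.25 times its counts in every library. The bare helitron649 ID did not share this pattern, at 46.8 ± 5.01 CPM with GUS RNAi and 51.1 ± 2.74 CPM with SKI3 RNAi and a log2 fold change of 0.02.

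The next 4 by level were also singleton fragments, from elements of 16390 to 16923 bp. The helitron777 fragment 25559 on chromosome 1, from chr8:854805-871727, had 535, 305 and 510 counts with GUS RNAi and 296, 271 and 441 with SKI3 RNAi. A pair of helitron112 fragments, from chr2:374659-391377, sits on chromosomes 1 and 4. The first, number 2495, had 405, 246 and 407 counts, then 259, 201 and 342. Its counts were 0.974 to 1.07 times those of the second, number 21524, so the pair is close to 1 measurement. The helitron50 fragment 24269 on chromosome 2, from chr1:26780533-26796922, had 367, 284 and 319 counts, then 230, 232 and 264. In all 4 the CPM of the groups overlapped, with log2 fold changes of -0.24 to -0.19 and edgeR adjusted p-values of 0.855 to 0.865.

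Of the lower fragments, the 3 with the smallest p all came from helitron263, a singleton element of 14419 bp at chr3:25621870-25636288. Fragment 15945 on chromosome 5 had 125, 39 and 79 counts with GUS RNAi and 32, 17 and 25 with SKI3 RNAi. In CPM it was at 24.0 ± 6.84 and 9.37 ± 1.96, and the groups did not overlap. Its log2 fold change was -1.46 (standard error 0.286, edgeR adjusted p 0.744). Fragment 24726 on chromosome 3 had 119, 39 and 71 counts, then 35, 18 and 25, a log2 fold change of -1.31. Fragment 7941 on chromosome 6 had 125, 46 and 75 counts, then 36, 22 and 34, a log2 fold change of -1.18. Fragment 24726 had 0.899 to 1.09 times the counts of fragment 15945 over the libraries, and fragment 7941 had 0.949 to 1.36 times. Whether the same reads were counted in each is not given in the sources used here. Without a filter on low counts the 3 had edgeR adjusted p-values of 0.000411, 0.00341 and 0.0129. Without SKI3 RNAi replicate 1 fragment 15945 had an edgeR adjusted p of 0.0496 and a log2 fold change of -1.61.

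Most other tested fragments of helitron263 also had negative log2 fold changes. Of its 149 fragments 38 were tested. The 35 tested besides these 3 had a negative log2 fold change in 24 and a positive one in 11, with a median of -0.28 and a range from -1.46 to 0.62. Of the 35, 11 were lower at an unadjusted p under 0.05 and 0 were higher, against 3.01% and 3.57% of all tested features. The element was picked for the small p of its fragments. Fragments of a source can share reads, so the 35 are not separate observations. All its fragments summed to 889, 927 and 787 CPM with GUS RNAi and 578, 582 and 771 CPM with SKI3 RNAi. The groups did not overlap, but SKI3 RNAi replicate 3 lay close to the lowest GUS RNAi library. Tested as a sum, the log2 fold change was -0.52 (standard error 0.186, edgeR unadjusted p 0.0195, adjusted p 0.742). The bare helitron263 ID had 133, 81 and 78 counts with GUS RNAi and 104, 80 and 75 with SKI3 RNAi, a log2 fold change of 0.01.

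On the higher side, 2 of the 3 fragments with the smallest p came from helitron298, a singleton element of 14790 bp at chr3:40709423-40724212. Fragment 32205 on chromosome 4 had 8, 5 and 8 counts with GUS RNAi and 17, 14 and 24 with SKI3 RNAi. Its log2 fold change was 1.57 (standard error 0.355, edgeR adjusted p 0.744). Fragment 1913 on chromosome 7 had 10, 6 and 9 counts, then 20, 15 and 21, a log2 fold change of 1.35. The groups did not overlap in either, at counts little above the filter. The element as a sum had 120, 160 and 106 CPM with GUS RNAi and 175, 179 and 177 CPM with SKI3 RNAi, and a log2 fold change of 0.38 (edgeR adjusted p 0.755). The last of the 3 was fragment 30799 on chromosome 4 of helitron62, an element of family 91 of 7528 bp at chr1:32879700-32887227. It had 18, 11 and 12 counts, then 23, 28 and 29, a log2 fold change of 1.16 (edgeR adjusted p 0.744).

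The longest and the shortest source among the tested fragments showed little difference. The longest, helitron311 of 19992 bp, had its tested fragment 24918 on chromosome 2 at 23, 20 and 18 counts with GUS RNAi and 17, 14 and 23 with SKI3 RNAi, with a log2 fold change of 0.00. The shortest, helitron824 of 293 bp, had fragment 3969 on chromosome 6 at 16, 15 and 16 counts, then 14, 10 and 10, with a log2 fold change of -0.29 (edgeR adjusted p 0.867).

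Of the families other than singleton, families 0, 13, 10, 2 and 1 held the most counts. Together they held 50.4% of the other-family CPM from 41.7% of its fragments. Family 0, with 12 source elements and 1912 fragments, summed to 3645, 3716 and 3633 CPM with GUS RNAi and 3797, 4055 and 4051 CPM with SKI3 RNAi. These groups did not overlap, at 3665 ± 44.6 and 3967 ± 148 CPM, with an exact permutation p of 0.1, the smallest possible, and 0.5 after adjustment over the 5 families. Its 329 tested fragments had a median log2 fold change of 0.01 after TMM scaling. The other 4 families overlapped between the groups, with exact permutation p-values of 0.3 to 0.9.

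A single source element held much of each of these families. Element helitron45, of 13402 bp at chr1:23751302-23764703, gave 829 fragments, the most of any source, and held 55.0% of the CPM of family 0. Its fragments summed to 2040, 2013 and 2109 CPM with GUS RNAi and 1947, 2121 and 2361 CPM with SKI3 RNAi. The groups overlapped, with a log2 fold change of -0.03 (edgeR adjusted p 0.977). Element helitron608 held 83.1% of family 13, helitron30 held 82.9% of family 10, helitron614 held 62.02% of family 1 and helitron220 held 41.1% of family 2. The most counted fragments of families 0, 2 and 1 had nearly equal counts. That of family 0, fragment 11267 on chromosome 4, had 133, 86 and 140 counts, then 112, 73 and 132. Those of families 2 and 1 held 0.964 to 1.08 and 0.977 to 1.11 times as many. The family 13 fragment held 1.25 to 1.38 times as many, and that of family 10 held 1.20 to 2.26 times, the highest in GUS RNAi replicate 1.

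Fragments of a source share sequence and can share reads, so counts were also summed per source element and the whole table fitted again, a step added after the data were seen. Of 654 source elements with enough counts, 0 had an edgeR adjusted p under 0.05, and the smallest was 0.742. An unadjusted p under 0.05 was found for 34, of which 22 were higher and 12 lower, 5.20% against 6.68% of all features in that fit. Where counts were high the sums mostly differed little between the groups. Libraries of the same group could still differ, as in helitron625 and helitron538 below. Of the 300 elements with at least 1000 counts over all libraries, 297 lay within 1.5-fold between the groups, and the log2 fold change ran from -0.85 to 0.69.

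The ends of that range were helitron774 and helitron415, both of singleton families. All fragments of helitron774, of 18087 bp at chr7:55971310-55989396, summed to 77.3, 133 and 126 CPM with GUS RNAi and 61.7, 52.1 and 82.7 CPM with SKI3 RNAi. The groups overlapped, by GUS RNAi replicate 1. All 12 of its tested fragments had negative log2 fold changes, and the sum had -0.85 (standard error 0.263, edgeR adjusted p 0.742). Those of helitron415, of 15157 bp at chr4:35856993-35872149, summed to 83.3, 59.5 and 93.8 CPM with GUS RNAi and 119, 167 and 128 CPM with SKI3 RNAi. The groups did not overlap, all 11 tested fragments had positive log2 fold changes, and the sum had 0.69 (standard error 0.224, edgeR adjusted p 0.742). Helitron854, of 7541 bp at chr8:38934036-38941576, was similar, with 9 of 9 tested fragments positive and a log2 fold change of 0.54. Of the 294 source elements with at least 5 tested fragments, 16 had all of them positive and 15 all negative. The share among other features is not given here. Fragments of a source can share reads, so fragments with the same sign are not separate observations.

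**Figure D5:**
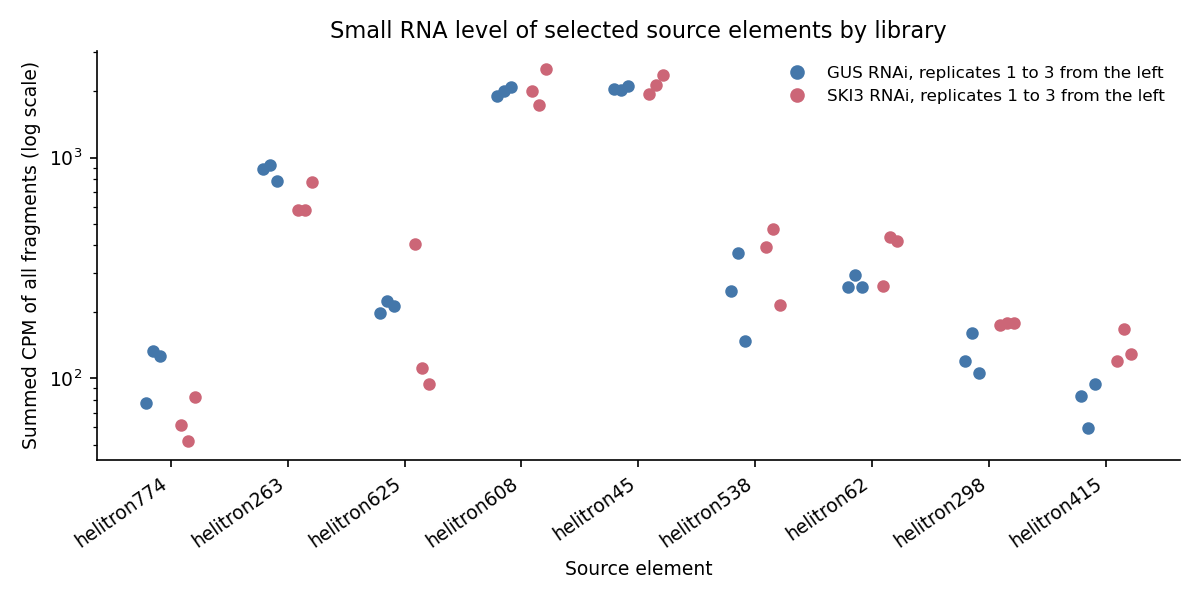
Summed CPM of all fragments (log scale) of 9 source elements in each library, GUS RNAi and SKI3 RNAi replicates 1 to 3 from the left. The groups are apart in helitron415, overlap in helitron45, and in helitron625 SKI3 RNAi replicate 1 lies at 404 CPM while replicates 2 and 3 lie at 111 and 94.6 CPM.

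Element helitron625, of 11460 bp at chr6:30779435-30790894, turned on SKI3 RNAi replicate 1. Its fragments summed to 198, 224 and 214 CPM with GUS RNAi and 404, 111 and 94.6 CPM with SKI3 RNAi. The other SKI3 RNAi libraries thus lay below all GUS RNAi libraries and replicate 1 above them. With all libraries the log2 fold change was -0.17 (edgeR adjusted p 0.952), and without replicate 1 it was -1.18 (edgeR adjusted p 0.0216). Without replicate 2 or 3 it was positive, at 0.15 and 0.14. No other source element passed the threshold without replicate 1. The share of all features that passed in that fit is not given here. With IDs tested singly it was 0.973% without replicate 1.

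Some fragments of helitron625 had counts close to a fixed ratio of 2:1:2:4:0:0 over GUS RNAi 1 to 3 and SKI3 RNAi 1 to 3. The GUS RNAi part of this ratio went roughly with the library totals of 3974092, 2168297 and 3486290. In CPM the 2 fragments below therefore differed little within GUS RNAi. Fragment 17846 on chromosome 6 had 178, 92 and 175 counts with GUS RNAi and 344, 2 and 4 with SKI3 RNAi. Fragment 26522 on chromosome 3 had 138, 73 and 139, then 275, 1 and 4. The log2 fold changes of both were negative with all libraries, at -0.26 and -0.23, and positive without SKI3 RNAi replicate 2 or 3. In total 12 helitron IDs from 8 source elements followed that ratio, with a tolerance of 0.03 in the fraction of an ID's counts that each library holds. They were 0.324% of the 3704 helitron IDs with at least 100 counts. Among all features with that many counts the share was 0.793%. Of the 12, 11 were of singleton families. Those families hold 73.9% of all helitron fragments, and 4150 of the tested fragments against 1933 of other families. Their share among IDs with at least 100 counts is not given here. All 12 were among the 31 that passed without SKI3 RNAi replicate 1. A ratio near 0 in SKI3 RNAi replicates 2 and 3 largely sets that outcome in advance. The ratio was noticed in the data, and leaving out the 231 features that follow it gave 0 helitrons past the adjusted threshold and 389 at an unadjusted p under 0.05, 5.83% of those tested against 6.83% of all features.

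Fragments of helitron538, a singleton element of 15857 bp at chr5:25629135-25644991, differed between libraries of the same group. Fragment 17924 on chromosome 1 had 5, 21 and 0 counts with GUS RNAi and 63, 42 and 0 with SKI3 RNAi. Fragment 13982 on chromosome 5 had 0, 14 and 0, then 41, 27 and 1. Both were high in SKI3 RNAi replicates 1 and 2 and near or at 0 in replicate 3 of either group. Their log2 fold changes were 2.05 and 2.35, with edgeR adjusted p-values of 0.826 and 0.787, which became 0.000221 and 0.000391 without a filter on low counts. Summed over all 219 fragments the element had 248, 370 and 147 CPM with GUS RNAi and 395, 477 and 214 CPM with SKI3 RNAi, lowest in replicate 3 of both groups, and a log2 fold change of 0.41 (edgeR adjusted p 0.848). This element was chosen after its values were seen.

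Tested fragments of 1 source element went together over the libraries more than others did. The mean Pearson r of log2(CPM + 1) over 6 libraries was 0.21 for pairs of the same source element. For pairs of the same family from other elements it was -0.01, and for pairs of different families 0.03. These are descriptions over pairs that share libraries and, within a source, sequence. Of the tested helitrons, 146 had the same 6 counts as another helitron and 232 the same as some tested feature.

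The chromosome that carries a fragment made little difference to its level. Mean CPM per fragment lay between 1.62 and 1.83 on chromosomes 1 to 8 and was 1.17 on the 643 fragments of unplaced contigs, which the IDs call chromosome 0. Fragments on the chromosome of their source had a mean of 1.65 CPM and a median of 0.326, and those on other chromosomes 1.76 and 0.462. The IDs also place 4 fragments in the plastid and 3 in the mitochondrion, at means of 0.260 and 0.0434 CPM, under the floor of every library.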

How the data were processed

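Small RNA was counted in 6 libraries, and groups and replicate numbers came from the sample titles. The authors deposited raw counts of reads, 1 whole number to each annotated feature. Per the labels' protocols, RNA was extracted with Trizol and libraries were made with the NEBNext small RNA kit. Per the submitters' processing notes, cutadapt 2.10, Bowtie 1.3.1 and DESeq2 1.34.0 were used. The counter, the treatment of reads with several alignments, the use of strand and the genome release are not given in the sources used here. Coordinates are those written in the IDs.

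A stray header row was dropped, and CPM was computed from the full total of each table. Total counts ran from 2168297 to 3974092, and Wilson intervals and floors cover counting error only. Tests used edgeR 4.0.16 in R 4.3.3 (TMM, filterByExpr with a minimum count of 10, quasi-likelihood, group as the only term), on all features. A standard error is the log2 fold change divided by the root of F. DESeq2 1.42.0 was an alternative. For a single value per library, exact two-sided permutation tests were computed directly in Python 3.11.15. Spearman correlations used SciPy 1.17.1. Scripts were tested on simulated data. The labels do not say that replicates come from separate plants, so p-values measure the spread between these samples, which may be technical.

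Named IDs were the 5 with the highest mean CPM, the 3 higher and 3 lower with the smallest p, the 5 most counted other families with their top fragment, the tested fragments with the longest and shortest source, and the source with the most fragments. Bare IDs, source elements, helitron538, helitron625 and the elements of highest CPM per kb were picked with their values in view. The members and lists were chosen with earlier results of these data known. Bare IDs took their length and family from fragments of the same helitron number. Alternatives changed the scaling, the filter, the test, the unit, the replicate block and the libraries used.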

Additional observations from a re-analysis of the deposited data

How the results depend on the processing

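The number of helitron IDs past the adjusted threshold was 0 with DESeq2, DESeq2 size factors, total counts, a filter of 1 CPM in 3 libraries, IDs with the same 6 counts kept once and the replicate block. It was 18 with no filter on low counts and ran from 0 to 31 when each library was left out, with 31 without SKI3 RNAi replicate 1. For source elements it ran from 0 to 1, and the share of all features is not given for the fit that gave 1. At an unadjusted p under 0.05 the count ran from 302 to 581 when each library was left out, highest without SKI3 RNAi replicate 3, or from 4.15% to 7.50% of helitrons against 4.85% to 8.93% of all features. It was 937 with the 1 CPM filter, 5.31% against 5.73% of all, and 102 with DESeq2's Wald test. The median log2 fold change of tested helitrons was 0.15 with total counts and -0.0145 with the 1 CPM filter, and ran from -0.0185 to 0.0355 when each library was left out. Of 319 settings of 23 fragments named with their counts, 284 kept direction and side of the threshold. In 8 a fragment passed the threshold, 4 for helitron263, 2 for helitron625 without SKI3 RNAi replicate 1 and 2 for helitron538 with no filter. In 27, over 7 fragments, the sign changed, none of them past the threshold. With the 1 CPM filter, no filter and the replicate block, the log2 fold change was -0.0231, -0.0544 and -0.00847 for the top fragment of family 0, -0.0209, -0.0516 and -0.00281 for that of family 1, and -0.0374, -0.0724 and -0.0052 for helitron311 fragment 24918. The last was also -0.0218 with DESeq2 and -0.00992 with its size factors, and the top fragment of family 13 was 0.0364 with total counts. With each library left out, these 4 ran from -0.245 to 0.184, -0.263 to 0.185, -0.269 to 0.172 and -0.359 to 0.0805, and the top fragment of family 2 from -0.226 to 0.253. Those of helitron625 ran from -5.29 to 0.32 for fragment 17846 and from -5.2 to 0.348 for 26522. The bare helitron263 and helitron649 changed sign in 9 of 28 settings, at -0.0283 and -0.0182 with the 1 CPM filter, -0.0651 and -0.0547 with no filter, and from -0.167 to 0.0785 and -0.0864 to 0.109 with each library left out. Among 12 source elements in 84 settings, helitron45 ran from -0.173 to 0.0075 and helitron625 from -1.18 to 0.147, and the other 10 kept their sign. With each library left out, the group difference in the singleton share of helitron counts ran from -0.15 to 0.39 points, negative without SKI3 RNAi replicate 1. Differences by source length ran from -0.0622 to 0.0186 points for 500 to under 1000 bp, from -0.103 to 0.0207 for 1000 to under 2000 bp, from -0.368 to 0.0218 for 2000 to under 5000 bp and from -0.234 to 0.0530 for 5000 to under 10000 bp. For the 25% of fragments with the longest sources it was -0.0172 points, against 0.32 from 10000 bp. The causes of these moves were not tested.

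The contrast of singleton with other families kept its sign when each library was left out. Per kb of source it ran from -1.004 to -0.986 and in detection from -8.56 to -8.35 points. With 5 libraries the sign-flip test cannot go below 0.0625. Within length classes it was -0.31 per kb for 2000 to under 5000 bp alone and -7.29 points in detection for 200 to under 500 bp alone. The ratio per kb for 200 to under 500 bp was not given, since a library held 0 counts of other families.

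With the replicate block 440 helitrons had an unadjusted p under 0.05, 6.59% against 7.97% of all features, the smallest adjusted p was 0.419 and no call changed. Deviations of libraries with the same number correlated at 0.071, 0.19 and 0.251 over all tested features, all weakly positive. These values do not settle whether the numbers mark pairs, and the main fit did not take them as pairs. The helitron share of counts was higher with SKI3 RNAi at each replicate number, but it was tested without pairing. Depth limits single fragments, since 13.7% of helitron IDs had enough counts to be tested.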
